A study of Homo sapiens with 24 samples.

Results

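Loss of DAXX and loss of ATRX were compared in untreated U87-T glioblastoma cells by asking, gene by gene, whether the 2 knockouts changed expression by different amounts or in opposite directions. The knockout effect of a gene was its log2 ratio of the knockout libraries over the WT libraries of the same series. The difference was the DAXX knockout effect minus the ATRX knockout effect, so that a positive difference means a more positive effect in DAXX_KO than in ATRX_KO. Where genes are called higher or lower in DAXX_KO relative to ATRX_KO below, these effects are compared, not the levels of the knockouts. Of 57736 genes in the count table, 15306 had enough counts to be tested. The knockout effects differed for 5625 of them (36.8%) at a false discovery rate (FDR) of 0.05, and for 963 (6.29%) both knockouts passed the same threshold with opposite sign. All 5625 genes were taken as the genes with a different knockout effect, and no size of change was required.

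RNA was sequenced from the 3′ ends of transcripts in 24 libraries of a human cell line, and the 12 libraries labelled control were used for the comparison. U87 is an established glioblastoma line, and U87-T carries a transgene for TERT, the catalytic subunit of telomerase. The DAXX series held 3 WT and 3 DAXX_KO libraries, and the ATRX series held 3 WT libraries of its own and 3 ATRX_KO libraries. The other 12 libraries were the same 4 groups after etoposide, a topoisomerase II poison that breaks DNA, and served below as separate samples for the same difference. WT cells carried an empty Cas9 lentiviral vector together with the TERT transgene, which the knockout cells share. DAXX_KO and ATRX_KO were each grown from a single cell clone edited with CRISPR-Cas9 and chosen for features of alternative lengthening of telomeres, so that a knockout and its clone cannot be told apart. The genotype field of the DAXX_KO libraries names an ATRX knockout, whereas their titles name a DAXX knockout, and the titles were followed. The study describes its replicates in general as biological, but whether the 3 libraries of a group came from separate cultures is not given for the sequencing, so the p-values measure the spread between libraries.

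DAXX and ATRX form a chaperone complex that places the histone variant H3.3 into heterochromatin, at telomeres, pericentromeric repeats and silenced elements. DAXX binds the histone H3.3-H4 dimer and also sits in PML nuclear bodies through SUMO-dependent contacts, while ATRX is a SWI/SNF-type ATPase that recognises trimethylated lysine on the histone H3 tail. Each protein also has partners and roles outside the complex, and loss of either is found in tumours that keep their telomeres without telomerase.

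Library totals ran from 6928950 to 13298557 estimated counts, and 3 counts in a library, the floor used below, corresponded to 0.229 to 0.400 CPM, the count scaled to 1000000 per library. The 7 glioma markers used as a check, among them VIM, CD44, NES and FN1, summed to between 4666 and 7737 CPM in every library. Leukocyte, endothelial and epithelial markers summed to at most 2.27 CPM, and AIF1, P2RY12 and CD3E were at 0 in all 12 libraries. The 4 oligodendrocyte markers summed to 9.15 to 9.76 CPM in ATRX_KO against 20.6 to 25.7 CPM in its WT libraries, and the 5 neuronal markers to 27.2 to 32.3 against 43.5 to 44.1 CPM, while in DAXX_KO the neuronal sum was 59.0 to 66.4 against 42.8 to 46.9 CPM. In ATRX_KO the astrocyte sum was 14.6 to 19.1 against 6.04 to 10.3 CPM in its WT libraries, mostly through ALDH1L1. The oligodendrocyte fall there was that of MBP, at 5.31 to 6.12 against 16.96 to 22.35 CPM, while MOG did not fall. The neuronal fall there was that of SYT1, while SNAP25 rose, at 4.14 CPM or more against at most 2.95 CPM. These small sums moved with the groups but rested on few genes, and their part in the results below was not tested. In bulk RNA, fewer cells of a kind and less RNA per cell cannot be told apart.

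The targeted genes separated as their titles say. DAXX was at 35.8, 34 and 33.3 CPM in the WT libraries of the DAXX series, 6.29, 4.67 and 6.69 in DAXX_KO, 33.2, 38.2 and 33.9 in the WT libraries of the ATRX series and 42.3, 44.6 and 44.2 in ATRX_KO. ATRX was at 226, 222 and 248 CPM in the WT libraries of the DAXX series, 418, 384 and 368 in DAXX_KO, 183, 189 and 195 in the WT libraries of the ATRX series and 85.6, 77 and 74.8 in ATRX_KO. In both cases the knockout libraries were below their WT libraries without overlap, and the other knockout was above its own WT: ATRX transcripts rose by 0.75 on the log2 scale in DAXX_KO and DAXX transcripts by 0.32 in ATRX_KO. The difference of effects was -2.86 ± 0.15 for DAXX (log2 ± SE, adjusted p = 7.21e-10) and 2.01 ± 0.10 for ATRX (adjusted p = 4.55e-10), by edgeR's quasi-likelihood test with Benjamini-Hochberg adjustment, which gives every adjusted p in this text unless another tool is named. From here on, a rise or fall by a number is a knockout effect on the log2 scale, and a log2 value with ± is a difference of effects with its SE unless it is called an effect.

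The genes with a different effect were split evenly by direction, 2775 (18.1%) higher and 2850 (18.6%) lower in DAXX_KO relative to ATRX_KO. Scaled by library totals alone, without the TMM normalization that corrects for composition, the median of all genes moved by 0.12 on the log2 scale, and 3548 genes were then higher and 2099 lower, so that directions below are relative to the typical gene. DAXX_KO alone moved for 1021 genes that rose and 1042 that fell, and ATRX_KO alone for 611 that rose and 613 that fell. Both knockouts raised 336 genes more in DAXX_KO and 159 more in ATRX_KO, and both lowered 504 genes more in DAXX_KO and 249 more in ATRX_KO. For 127 further genes neither effect passed on its own.

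Opposite effects were found for 509 genes (3.33%) that rose in DAXX_KO and fell in ATRX_KO and for 454 (2.97%) with the reverse pattern. Their median absolute differences were 1.32 and 1.02 on the log2 scale, against 0.43 over all tested genes. Across the 5625 genes, the gap between the 2 knockouts was larger than the gap between the WT libraries of the 2 series for 4760, and a direct comparison of DAXX_KO with ATRX_KO passed FDR 0.05 with the same sign for 4855, where 48.8% of all tested genes passed in either direction. The WT libraries themselves differed at FDR 0.05 for 1188 of the 5625, and for 2186 (14.3%) of all tested genes, 6.42% higher and 7.87% lower in the DAXX series, although both are U87-T controls. A difference of at least 1 on the log2 scale was reached by 2018 genes (13.2%), 1172 higher and 846 lower.

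**Figure D1:**
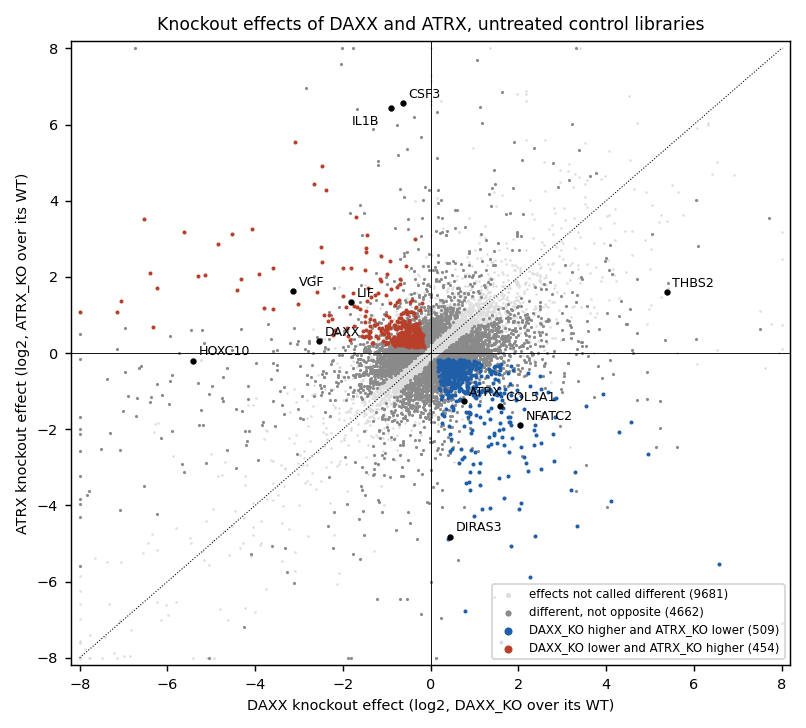
Each point is a tested gene, with its DAXX knockout effect on the horizontal axis and its ATRX knockout effect on the vertical axis (log2, 3 KO over 3 WT libraries each); values beyond 8 are drawn at the edge. The 509 genes higher in DAXX_KO and lower in ATRX_KO lie at the lower right, the 454 with the reverse pattern in the upper left, and the dotted line marks equal effects.

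Among genes that rose in DAXX_KO and fell in ATRX_KO, the 8 with the largest effects in both series at a mean of at least 1 CPM in each group, without overlap of KO and WT libraries, held 2 genes of MHC class II, the surface molecules that present peptides to helper T cells. HLA-DRA, the alpha chain of HLA-DR (chromosome 6, 32407655 to 32412823, plus strand, build GRCh37 as for every gene position here), was at 7.14, 8.75 and 5.35 CPM in the WT libraries of the DAXX series, 20.4, 23.7 and 23.1 in DAXX_KO, 7.18, 9.17 and 8.78 in the WT libraries of the ATRX series and 1.45, 1.98 and 2.81 in ATRX_KO. HLA-DPA1, the alpha chain of HLA-DP, was at 6.44, 4.2 and 6.33 CPM in the WT libraries of the DAXX series, 20.4, 22.1 and 15.8 in DAXX_KO, 6.42, 7.92 and 7.68 in the WT libraries of the ATRX series and 1.62, 2.39 and 2.26 in ATRX_KO. Neither gene had overlapping libraries of KO and WT in either series, which was a condition for naming them. The WT libraries of the 2 series lay close together. The differences were 3.65 ± 0.29 (adjusted p = 7.51e-08) for HLA-DRA and 3.57 ± 0.29 (adjusted p = 8.67e-08) for HLA-DPA1. The partner chain gene HLA-DPB1 fell in ATRX_KO, from 9.32, 10.2 and 12.1 to 0.851, 1.32 and 1.25 CPM, whereas DAXX_KO at 8.18, 6.94 and 5.71 CPM overlapped its WT libraries at 8.55, 8.05 and 7.42. Its difference was 2.98 ± 0.29 (adjusted p = 6.53e-07), with a DAXX knockout effect of -0.21 ± 0.19 that did not pass the test (adjusted p = 0.37). HLA-DPA1 and HLA-DPB1 overlap on opposite strands, and the strand setting of the counting is not given in the sources used here, so reads of the shared stretch are uncertain. CIITA, the coactivator that switches on MHC class II genes, fell by 0.65 on the log2 scale in ATRX_KO, with a DAXX knockout effect of 0.13 that did not pass (adjusted p = 0.481). Its difference was 0.78 ± 0.21 (adjusted p = 0.0064), and 0.79 with an adjusted p of 0.0753 in a model of all 24 libraries.

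NFATC2, ATOH8 and METTL7A were also among the 8 named genes of this direction. NFATC2, a calcium-responsive transcription factor of the NFAT family (chromosome 20, 50003494 to 50179370, minus strand), was at 3.72, 4.78 and 3.41 CPM in the WT libraries of the DAXX series, 16.7, 15.5 and 17 in DAXX_KO, 5.88, 5.75 and 4.47 in the WT libraries of the ATRX series and 1.19, 1.9 and 1.25 in ATRX_KO. ATOH8, a basic helix-loop-helix factor, was at 14, 14.6 and 15.4 CPM in DAXX-series WT, 98.9, 97.9 and 118 in DAXX_KO, 22.2, 19.2 and 21.9 in ATRX-series WT and 12.3, 3.46 and 4.14 in ATRX_KO. For both genes DAXX_KO stood above and ATRX_KO below every WT library of its series, as the naming rule required. ATRX_KO replicate 1 held about 3 times the ATOH8 level of the other 2. The differences were 3.93 ± 0.29 (adjusted p = 3.11e-08) and 4.52 ± 0.37 (adjusted p = 8.4e-08). METTL7A, a methyltransferase-like protein of lipid droplets (chromosome 12, 51317255 to 51326293, plus strand), was at 17.6, 17.6 and 17.3 CPM in DAXX-series WT, 66, 62.2 and 60.3 in DAXX_KO, 19.8, 20.02 and 17.8 in ATRX-series WT and 3.4, 4.45 and 4.37 in ATRX_KO. It rose by 1.84 in DAXX_KO and fell by 2.23 on the log2 scale in ATRX_KO, a difference of 4.07 ± 0.15 (adjusted p = 1.47e-11).

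MFAP4, a glycoprotein of elastic microfibrils, was at 3.72, 4.2 and 4.87 CPM in DAXX-series WT, 15, 14.7 and 15 in DAXX_KO, 6.49, 6.76 and 5.15 in ATRX-series WT and 1.96, 1.4 and 2.34 in ATRX_KO. CNN1, the calponin of contractile actin filaments, was at 2.31, 1.63 and 1.95 CPM in DAXX-series WT, 8.68, 8.67 and 8.63 in DAXX_KO, 2.22, 3.92 and 5.06 in ATRX-series WT and 0.680, 1.32 and 1.95 in ATRX_KO. KLHL4, a kelch-family protein encoded on the X chromosome, was at 15.3, 13.4 and 10.7 CPM in DAXX-series WT, 37, 38.8 and 44.5 in DAXX_KO, 13.4, 12.8 and 10.4 in ATRX-series WT and 5.36, 3.22 and 4.06 in ATRX_KO. The 3 genes had no overlap between KO and WT in either series, as the rule for naming them required. Their differences were 3.49 ± 0.28, 3.60 ± 0.47 and 3.14 ± 0.24, with adjusted p values of 6.72e-08, 1.45e-05 and 4.12e-08.

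Secreted and metabolic genes were among those with the reverse pattern, lower in DAXX_KO and higher in ATRX_KO. VGF, a neurosecretory precursor protein (chromosome 7, 100805790 to 100808850, minus strand), was at 101, 104 and 94 CPM in the WT libraries of the DAXX series, 10.3, 10 and 13.7 in DAXX_KO, 75, 63 and 69 in the WT libraries of the ATRX series and 216, 192 and 230.1 in ATRX_KO. DAXX_KO was thus far below and ATRX_KO well above its WT libraries, without the overlap that the naming rule excluded. G0S2, the inhibitor of the lipase that starts fat breakdown, was at 291, 286 and 288 CPM in DAXX-series WT, 84.3, 86.8 and 84.1 in DAXX_KO, 364, 337 and 309 in ATRX-series WT and 695, 1156 and 1183 in ATRX_KO. LIF, a cytokine of the interleukin-6 family, was at 4.73, 4.08 and 2.31 CPM in DAXX-series WT, 1.13, 1.2 and 0.851 in DAXX_KO, 5.73, 5.59 and 8.69 in ATRX-series WT and 9.53, 10.9 and 29.97 in ATRX_KO, with ATRX_KO replicate 3 about 3 times the other 2. The differences were -4.76 ± 0.15 for VGF (adjusted p = 1.82e-12), -3.35 ± 0.20 for G0S2 (adjusted p = 2.36e-09) and -3.15 ± 0.67 for LIF (adjusted p = 0.00144).

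GALNT6, an enzyme that begins mucin-type O-glycosylation (chromosome 12, 51745031 to 51786651, minus strand), was at 3.62, 5.13 and 5.96 CPM in DAXX-series WT, 1.38, 1.33 and 2.43 in DAXX_KO, 2.9, 4.84 and 3.63 in ATRX-series WT and 28.1, 22.8 and 21.1 in ATRX_KO. It lies on the same chromosome as METTL7A, which moved the opposite way. The long noncoding RNA LINC02381 (chromosome 12, 54519803 to 54541269, plus strand), close to the HOXC cluster, was at 7.85, 7.12 and 6.45 CPM in DAXX-series WT, 1.01, 1.47 and 1.34 in DAXX_KO, 4.81, 6.67 and 5.4 in ATRX-series WT and 28, 31.3 and 29.1 in ATRX_KO. LINC00665, another long noncoding RNA, was at 2.82, 4.08 and 4.01 CPM in DAXX-series WT, 1.01, 1.73 and 1.22 in DAXX_KO, 1.83, 3.09 and 4.22 in ATRX-series WT and 27.8, 26.5 and 23.8 in ATRX_KO. All KO libraries of these 3 genes lay outside the range of their WT libraries, as the naming rule required. The differences were -4.15 ± 0.36, -4.88 ± 0.25 and -4.55 ± 0.39, with adjusted p values of 1.86e-07, 5.28e-10 and 1.4e-07.

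Members of repeated or multi-copy families need care, because reads may be shared among copies. H2BC12, a histone H2B gene of the replication-dependent cluster, was at 163, 158 and 144 CPM in the WT libraries of the DAXX series, 61.2, 65.4 and 67.4 in DAXX_KO, 64.6, 59.9 and 69.3 in the WT libraries of the ATRX series and 158, 183 and 215 in ATRX_KO. The DAXX_KO libraries overlapped the WT level of the ATRX series, and the WT libraries of the 2 series themselves differed by 1.26 on the log2 scale. RP11-782C8.2, a noncoding gene (chromosome 1, 143118704 to 143211070, minus strand), was at 2.51, 5.84 and 5.47 CPM in DAXX-series WT, 1.26, 0.533 and 1.58 in DAXX_KO, 1.91, 1.25 and 1.94 in ATRX-series WT and 7.91, 8.0 and 8.04 in ATRX_KO, again with unequal WT libraries. The differences were -2.79 ± 0.14 (adjusted p = 3.68e-10) and -4.21 ± 0.48 (adjusted p = 3.7e-06).

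**Figure D2:**
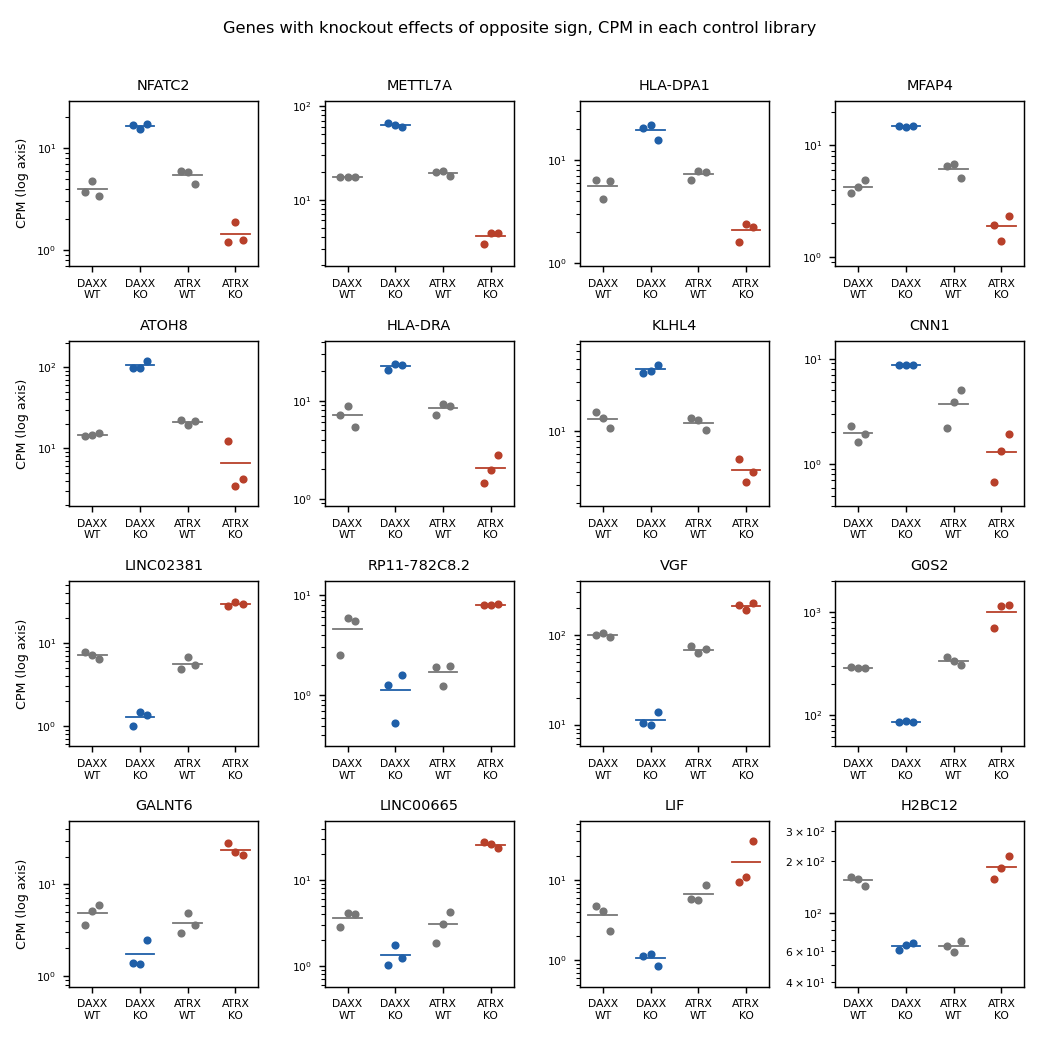
Points are CPM in each control library on a log axis, short lines are group means of 3 libraries, and each panel is 1 of the 16 genes with the largest opposite effects among those with a mean of at least 1 CPM in each group and no overlap of KO and WT libraries. In the upper 2 rows DAXX_KO stands above and ATRX_KO below its WT libraries, and in the lower 2 rows the order is reversed.

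Gene functions were read from 26 lists, each described by its counts and its median difference beside the same over all tested genes, which is -0.01 on the log2 scale with 18.1% of genes higher and 18.6% lower. The bar plot of lists places cytokines and NF-kB targets at the lower end and collagen chains at the upper end.

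**Figure D3:**
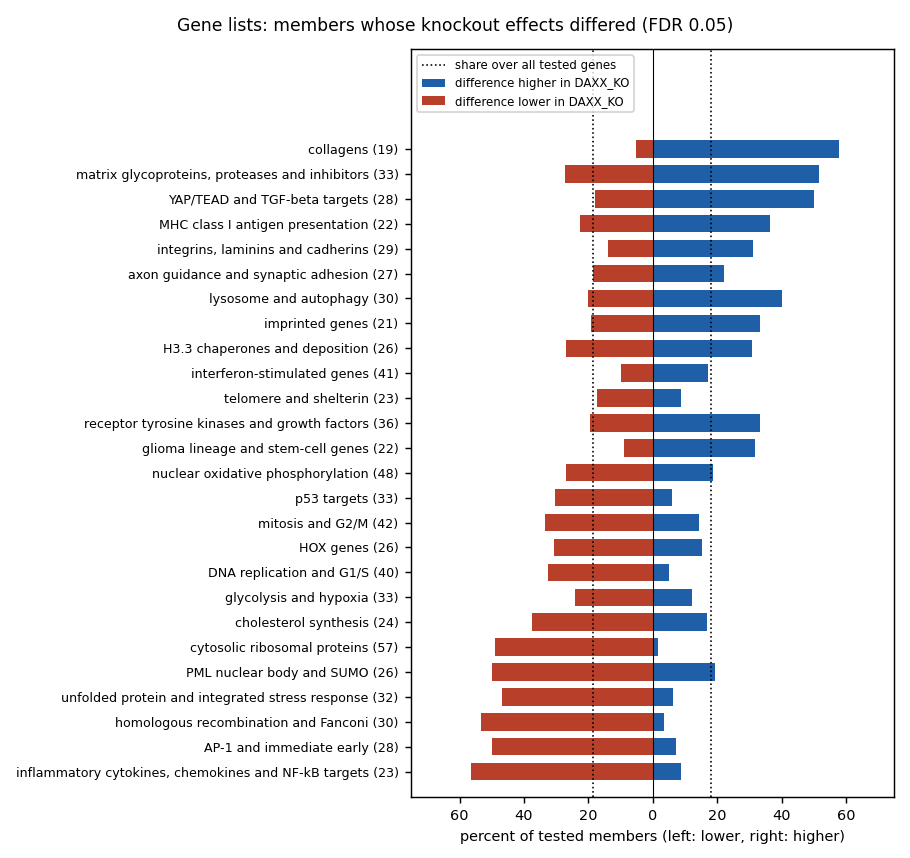
Bars give the percent of tested members of each list (number tested in brackets) whose difference passed FDR 0.05, higher in DAXX_KO to the right and lower to the left, ordered by median difference; dotted lines are the shares over all tested genes, 18.1% and 18.6%. The cytokine and NF-kB list has 13 of 23 members lower, and the collagen list 11 of 19 higher.

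Inflammatory cytokines, chemokines and NF-kB targets differed more often toward ATRX_KO. Of 40 genes on the list, 23 were tested, 13 were lower in DAXX_KO relative to ATRX_KO and 2 were higher, with a median difference of -1.70. Set to the floor of 3 counts where a group lay at or under it, which touched 4 members, the median was -1.64. The median ATRX knockout effect was 2.07 and the median DAXX knockout effect -0.54. NF-kB factors are held in the cytoplasm by inhibitors such as NFKBIA and, once released, bind short sites in the promoters of cytokine genes and of their own inhibitors.

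The promoter of several members called lower carried a match to the NF-kB consensus, and the matches are shown to let the sites be compared. The list was drawn up around NF-kB targets, so a share above that of all genes is built into it. Among the 250 bases before the start, searched on both strands, 7 of the 11 called-lower members with a promoter in the RefSeq table (63.6%) held a match, as did 8 of the 18 tested members with a promoter (44.4%), against 11.4% of the 10654 tested genes that matched by symbol and 9.57% of all 27305 promoters in the table. The windows below are 30 bases from RefSeq on GRCh38.p14, 5′ to 3′ on the strand of the gene, with the match in capitals; CXCL8 is shown with its match to the AP-1 site, TGACTCA or its reverse complement TGAGTCA, which was found in 1 of the same 11 promoters, in 4 of the 18 and in 2.87% of tested genes. A match is a description of letters, not a measure of binding.
CXCL1, NF-kB match, chr4:73869304-73869333, plus strand: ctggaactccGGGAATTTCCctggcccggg
CXCL2, NF-kB match, chr4:74099254-74099283, minus strand: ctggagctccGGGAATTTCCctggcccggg
CXCL3, NF-kB match, chr4:74038749-74038778, minus strand: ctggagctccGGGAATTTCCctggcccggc
TNFAIP3, NF-kB match, chr6:137867182-137867211, plus strand: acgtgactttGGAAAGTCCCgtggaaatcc
NFKBIA, NF-kB match, chr14:35404811-35404840, minus strand: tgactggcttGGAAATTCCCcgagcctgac
NFKBIZ, NF-kB match, chr3:101827757-101827786, plus strand: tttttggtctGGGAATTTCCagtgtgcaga
BIRC3, NF-kB match, chr11:102317275-102317304, plus strand: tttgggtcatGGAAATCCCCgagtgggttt
CXCL8, AP-1 match, chr4:73740420-73740449, plus strand: taggaagtgtgaTGACTCAggtttgccctg
The CXCL1, CXCL2 and CXCL3 windows are nearly alike, with the match beginning at -79, -78 and -79 relative to the start, and each holds a further match shifted by 1 base. The 3 genes are close paralogs, so their counts may be split uncertainly.

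IL1B, the pyrogenic cytokine interleukin-1 beta (chromosome 2, 113587328 to 113594393, minus strand), was at 6.04, 5.13 and 5.11 CPM in the WT libraries of the DAXX series, 3.78, 2.93 and 2.07 in DAXX_KO, 4.13, 4.09 and 3.29 in the WT libraries of the ATRX series and 193, 419.8 and 381 in ATRX_KO. CSF3, the granulocyte growth factor, was at 4.02, 4.32 and 3.89 CPM in DAXX-series WT, 2.39, 2.53 and 2.92 in DAXX_KO, 3.51, 4.59 and 4.89 in ATRX-series WT and 159, 566 and 495 in ATRX_KO. In both genes all 3 ATRX_KO libraries lay far above every other library, and ATRX_KO replicate 1 was the lowest of the 3. The ATRX knockout effect of IL1B was 6.43 ± 0.27 and its DAXX knockout effect -0.90 ± 0.45 (adjusted p = 0.103), so the difference of -7.33 ± 0.54 (adjusted p = 2.52e-08) rested on ATRX_KO. The difference of CSF3 was -7.19 ± 0.88 (adjusted p = 7.92e-06).

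PTGS2, the inducible cyclooxygenase that makes prostaglandins, was at 2.11, 1.28 and 0.730 CPM in DAXX-series WT, 1.13, 0.667 and 1.09 in DAXX_KO, 1.07, 1.58 and 1.01 in ATRX-series WT and 22.5, 53.1 and 76.4 in ATRX_KO, a difference of -5.90 ± 0.94 (adjusted p = 0.000107). CXCL8, the neutrophil chemoattractant interleukin-8, was at 1.11, 1.4 and 0.243 CPM in DAXX-series WT, 0.378, 0.267 and 0.243 in DAXX_KO, 1.83, 2.25 and 1.43 in ATRX-series WT and 6.46, 25.4 and 50.8 in ATRX_KO. The DAXX_KO libraries of CXCL8 were at or under the floor of 3 counts. CXCL1 was also at or under the floor in DAXX_KO, at 0.126, 0 and 0.122 CPM, and its ATRX_KO libraries, at 1.19, 7.09 and 8.35 CPM, were at least 14.6-fold higher on average (difference adjusted p = 0.000621). ATRX_KO replicate 1 overlapped the WT libraries of CXCL1 at 0.917, 1.5 and 1.52 CPM. The related CXCL2 reached 5.19, 15.6 and 22.1 CPM in ATRX_KO against at most 1.33 CPM in WT. CXCL3 reached 4.85, 16.1 and 22.1 CPM against at most 2.11 CPM in WT.

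Inhibitors and regulators of NF-kB differed as well. TNFAIP3, the deubiquitinase A20 that ends NF-kB signalling, rose by 1.12 in DAXX_KO and by 2.73 in ATRX_KO, a difference of -1.62 ± 0.44 (adjusted p = 0.00861). NFKBIA rose in both as well, from 87.4, 79.7 and 81 to 111, 106 and 102 CPM in the DAXX series and from 104, 115 and 111 to 151, 227 and 221 CPM in the ATRX series. BIRC3, an inhibitor of apoptosis, fell in both knockouts and more in DAXX_KO, where it was at 1.38, 0.934 and 0.851 CPM against 5.93, 5.95 and 6.57 in WT. Among members whose difference did not pass, CSF1, the macrophage growth factor, rose by 3.26 and 3.54 in DAXX_KO and ATRX_KO, and CCL2, a monocyte chemoattractant, fell by 3.03 and by 3.17. The members with a higher value in DAXX_KO relative to ATRX_KO were TNFAIP2 (1.44 ± 0.13) and TSLP (1.12 ± 0.28), and both fell in ATRX_KO.

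Without ATRX_KO replicate 1, 17 members of the list differed and the median was -1.89. With genes kept only at 10 counts or more in every control library, 8 differed and the median was -0.55. The plot of knockout effects by list member shows both effects of each gene side by side.

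**Figure D4:**
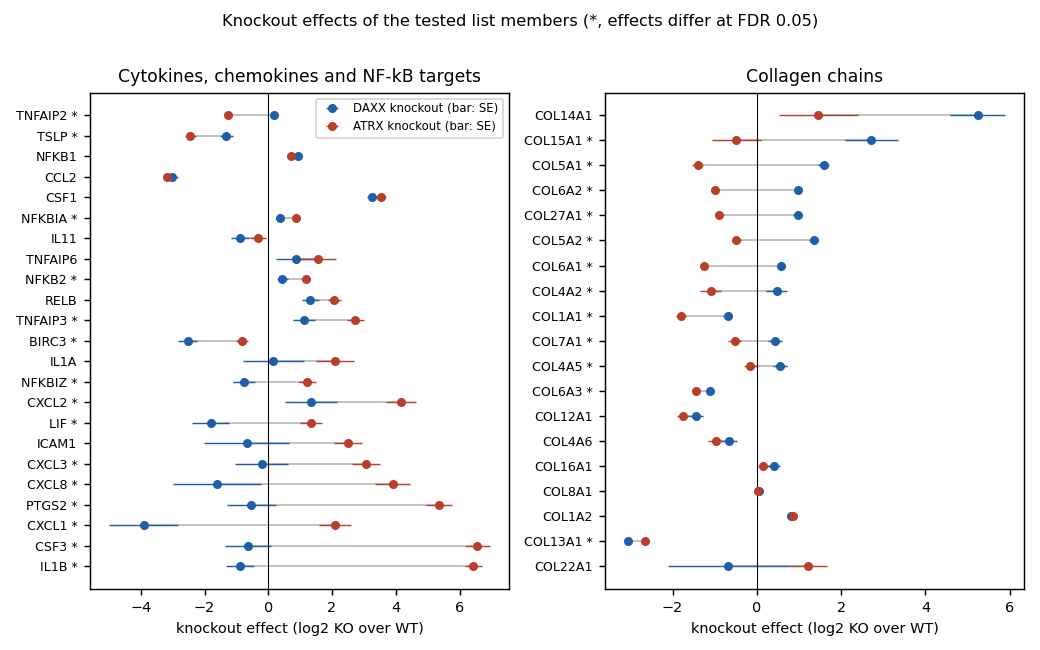
Each row is a tested list member with its DAXX (blue) and ATRX (red) knockout effect in log2 (3 KO over 3 WT libraries, bars are SE) and a star where the effects differ at FDR 0.05. Cytokines such as IL1B and CSF3 have ATRX knockout effects above 6, while 11 of 19 collagen chains have the DAXX knockout effect to the right and a star.

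Immediate early genes and feedback regulators of MAP kinase signalling also moved apart. Of 28 tested AP-1 and immediate early genes, 14 were lower and 2 higher in DAXX_KO relative to ATRX_KO, with a median difference of -0.53, and 5 had opposite effects. DUSP6, the phosphatase that inactivates ERK, was at 32.8, 39.1 and 37.7 CPM in DAXX-series WT, 20.1, 19.6 and 18 in DAXX_KO, 31.6, 27.9 and 28.6 in ATRX-series WT and 143, 159.8 and 171 in ATRX_KO. EGR1, a zinc finger factor induced by growth signals, was at 28.6, 32.7 and 33.3 CPM in DAXX-series WT, 20.9, 21.7 and 21.3 in DAXX_KO, 16.8, 13.6 and 16.5 in ATRX-series WT and 86.1, 69.3 and 74.4 in ATRX_KO. No libraries of KO and WT overlapped for either gene, and the WT libraries of EGR1 differed between the series by 1.01 on the log2 scale. The differences were -3.35 ± 0.14 (adjusted p = 4.26e-11) and -2.85 ± 0.15 (adjusted p = 7.04e-10).

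DUSP4, a related MAP kinase phosphatase, went the other way, at 53, 56.6 and 49.5 CPM in DAXX-series WT, 46.3, 46 and 43.6 in DAXX_KO, 64.3, 57.7 and 58.9 in ATRX-series WT and 8.51, 8.58 and 11.5 in ATRX_KO, a difference of 2.43 ± 0.14 (adjusted p = 2.05e-09). JUN, a subunit of AP-1, fell by 0.71 on the log2 scale in DAXX_KO and rose by 0.26 in ATRX_KO. The other members with opposite effects were DUSP5 (-1.72 ± 0.20) and IER2 (-0.99 ± 0.09). The feedback inhibitors SPRY2 and SPRY4 fell in DAXX_KO, by 1.55 and 2.49 on the log2 scale, with ATRX knockout effects of -0.17 and -1.11, of which the second passed the test. FOS was low in every library, at most 2.59 CPM, and its difference did not pass (adjusted p = 0.325).

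Collagen chains, which form the fibrils and networks of the extracellular matrix, differed mostly toward more positive effects in DAXX_KO. Of 19 tested chains, 11 were higher and 1 lower, the median difference was 0.95, and 6 chains had opposite effects. COL5A1, a chain of fibrillar collagen V (chromosome 9, 137533649 to 137736689, plus strand), was at 45.7, 52.4 and 50.1 CPM in the WT libraries of the DAXX series, 153, 158 and 132 in DAXX_KO, 57.4, 48.6 and 58.1 in the WT libraries of the ATRX series and 26.7, 18.8 and 16.8 in ATRX_KO. COL6A2, a chain of microfibrillar collagen VI, was at 54.8, 56.5 and 44.6 CPM in DAXX-series WT, 103, 94.4 and 109 in DAXX_KO, 114, 97.3 and 98.2 in ATRX-series WT and 50.9, 50.1 and 53.3 in ATRX_KO. COL5A1 had similar WT libraries in the 2 series, whereas the COL6A2 level of DAXX_KO overlapped that of the ATRX-series WT libraries. The differences were 2.98 ± 0.18 (adjusted p = 3.33e-09) and 1.98 ± 0.13 (adjusted p = 7.82e-09). Compared directly, without the WT libraries, DAXX_KO lay 0.99 above ATRX_KO on the log2 scale for COL6A2.

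The other 4 chains with opposite effects were COL5A2 (1.83 ± 0.15), COL6A1 (1.82 ± 0.09), COL27A1 (1.86 ± 0.15) and COL7A1 (0.95 ± 0.22). COL1A1, the main chain of collagen I, fell in both knockouts, from 414, 382 and 447 to 285, 279 and 210.3 CPM and from 475, 392 and 424 to 122, 136 and 114 CPM, and more in ATRX_KO. Its partner chain COL1A2 rose by 0.81 and 0.85, and its difference did not pass (adjusted p = 0.79). COL15A1 was at 2.89, 2.8 and 1.82 CPM in DAXX_KO and at most 1.00 CPM in all other libraries, a difference of 3.20 ± 0.87 (adjusted p = 0.00781). It is among the higher chains but would not have passed the filter on low counts without DAXX_KO, so its call is not read as support. COL13A1 fell in both knockouts and was the chain with a lower value in DAXX_KO (-0.39 ± 0.12). Centred on the 30 neighbouring genes on each side, 8 chains differed and the list's median was 0.57.

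Matrix glycoproteins, proteases and their inhibitors moved strongly in both directions. Of 33 tested, 17 were higher and 9 lower in DAXX_KO relative to ATRX_KO, a median of 0.47 (0.54 with 2 members set to the floor), with 5 and 6 genes of opposite effect. EFEMP1, a fibulin of the elastic matrix, was at 6.94, 4.9 and 5.96 CPM in DAXX-series WT, 20.6, 20.5 and 22.1 in DAXX_KO, 6.19, 7.42 and 4.13 in ATRX-series WT and 0, 0.330 and 0.156 in ATRX_KO. FN1, fibronectin, rose by 1.95 in DAXX_KO and fell by 1.22 on the log2 scale in ATRX_KO. THBS2, a thrombospondin that binds matrix and growth factors, was at 0.503, 0.233 and 0.365 CPM in DAXX-series WT, 14.2, 17.9 and 15.9 in DAXX_KO, 0.458, 0.167 and 0.338 in ATRX-series WT and 0.851, 0.825 and 1.33 in ATRX_KO. EFEMP1 was nearly absent from ATRX_KO, and THBS2 rose in DAXX_KO with a smaller rise in ATRX_KO. THBS2 would not have passed the filter on low counts without DAXX_KO, so its call is not read as support. The differences were 6.90 ± 0.47 for EFEMP1 (adjusted p = 1e-08) and 3.78 ± 0.62 for THBS2 (adjusted p = 0.00015), and that of FN1 was 3.17 ± 0.14 (adjusted p = 1.13e-10).

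The secreted proteases MMP1 and MMP3 and the urokinase receptor PLAUR took the reverse direction. MMP1, the interstitial collagenase, was at 1.31, 1.17 and 0.487 CPM in DAXX-series WT, 0, 0 and 0 in DAXX_KO, 1.45, 1.42 and 1.27 in ATRX-series WT and 5.7, 6.02 and 6.17 in ATRX_KO. With no count in any DAXX_KO library, ATRX_KO was at least 15.7-fold higher (difference adjusted p = 6.38e-06). MMP3, a stromelysin, fell by 1.00 on the log2 scale in DAXX_KO and rose by 2.07 in ATRX_KO. PLAUR, the urokinase receptor, fell by 0.80 and rose by 0.73. TIMP1, a metalloproteinase inhibitor, rose in ATRX_KO alone (1.82), whereas TIMP2 (1.15 ± 0.16) and TIMP3 (1.10 ± 0.12) were higher in DAXX_KO relative to ATRX_KO. The AP-1 site was found in 1 of 4 promoters of called-lower members, that of PLAUR, and in 0 of 11 promoters of called-higher members. The PLAUR window is printed because that gene had opposite effects, from RefSeq on GRCh38.p14 with the site in capitals.
PLAUR, AP-1 match, chr19:43670338-43670367, minus strand: atcacaactccaTGAGTCAgggccgagcca

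Receptors and basement membrane chains of cell adhesion followed the collagens in part, with 9 of 29 tested integrins, laminins and cadherins higher, 4 lower and a median of 0.31. LAMB3, the beta chain of laminin 332, was at 14.9, 13.8 and 13.1 CPM in DAXX-series WT, 176, 174 and 151 in DAXX_KO, 18.5, 14.8 and 15.2 in ATRX-series WT and 18.4, 27.9 and 26.1 in ATRX_KO. All DAXX_KO libraries were more than 5 times any other library, and the difference was 3.00 ± 0.19 (adjusted p = 5.49e-09). LAMA3, the alpha chain of the same laminin, was at 2.89, 2.0 and 1.7 CPM in DAXX_KO, at least 6.49-fold above its WT libraries, which were at or under the floor (difference adjusted p = 0.000649). LAMA3 passed the filter on low counts only through DAXX_KO, so its call is not read as support. ITGA11, a collagen receptor subunit, rose in DAXX_KO from 5.33, 7.12 and 5.35 to 23.8, 18.5 and 18.6 CPM and had an effect of -0.46 ± 0.20 in ATRX_KO (adjusted p = 0.0661). ITGA2, another collagen receptor subunit, fell in DAXX_KO alone, from 119, 108 and 101 to 25.2, 28 and 28.6 CPM, while ATRX_KO at 196, 151 and 183 CPM overlapped its WT libraries at 161, 156 and 156 CPM. The difference was 2.24 ± 0.27 for ITGA11 (adjusted p = 6.3e-06) and -2.17 ± 0.13 for ITGA2 (adjusted p = 3.38e-09).

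Targets of TGF-beta, BMP and YAP signalling were higher in DAXX_KO relative to ATRX_KO for 14 of 28 tested members and lower for 5, with a median of 0.46. BMP-responsive genes were among the members with the largest differences. SMAD6, an inhibitory SMAD, was at 6.54, 6.89 and 5.47 CPM in DAXX-series WT, 13.8, 11.9 and 12.5 in DAXX_KO, 8.1, 7.67 and 8.52 in ATRX-series WT and 1.96, 0.742 and 1.33 in ATRX_KO, with no overlap in either series and a difference of 3.60 ± 0.31 (adjusted p = 1.41e-07). BAMBI, a decoy receptor, had no count in ATRX_KO and was at 2.01, 2.0 and 1.34 CPM in DAXX_KO, at least 7.26-fold higher (difference adjusted p = 0.0012). BAMBI passed the filter on low counts only through DAXX_KO, so its call is not read as support. Under etoposide its difference was 0.84 and did not pass (adjusted p = 0.418). The inhibitors of DNA binding ID1, ID2 and ID3 had differences of 1.80 ± 0.21, 2.16 ± 0.23 and 1.92 ± 0.16, and ID3 rose by 1.37 in DAXX_KO and fell by 0.55 on the log2 scale in ATRX_KO. The matrix-associated target CCN1 rose in ATRX_KO alone (1.30), while CCN2 fell in both. THBS1 fell in both knockouts, by 4.10 and 5.29 on the log2 scale.

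HOX genes, which set positional identity along the body axis, differed in both directions. Of 26 tested, 8 were lower and 4 higher in DAXX_KO relative to ATRX_KO, with a median of -0.15 that was 0.01 when only genes at 10 counts or more in every library were kept, which left 7 with a different effect in place of 12. Of the 8 lower members 5 lie in the HOXC cluster, HOXC6, HOXC8, HOXC9, HOXC10 and the antisense RNA HOTAIR. HOXC10 (chromosome 12, 54378849 to 54384063, plus strand) was at 33.7, 30.5 and 29.1 CPM in the WT libraries of the DAXX series, 0.755, 0.667 and 0.729 in DAXX_KO, 40.8, 42.8 and 39.5 in the WT libraries of the ATRX series and 36.1, 34.3 and 36.8 in ATRX_KO. HOXC8 was at 15.8, 14.7 and 18 CPM in DAXX-series WT, 0.252, 0.800 and 0.851 in DAXX_KO, 17.3, 18.8 and 15 in ATRX-series WT and 13.4, 12.5 and 13 in ATRX_KO. HOXC9 was at 14.4, 18.6 and 18.9 CPM in DAXX-series WT, 3.15, 3.07 and 1.34 in DAXX_KO, 15.8, 15.9 and 15 in ATRX-series WT and 16.8, 20.1 and 19.3 in ATRX_KO. The DAXX_KO libraries of the 3 neighbouring genes were far under all others, while in ATRX_KO HOXC8 fell by 0.39 on the log2 scale and the other 2 did not pass the test. The differences were -5.21 ± 0.19 (adjusted p = 1.47e-11), -4.25 ± 0.30 (adjusted p = 1.67e-08) and -3.04 ± 0.27 (adjusted p = 1.95e-07).

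The antisense transcript HOTAIR of the same cluster fell from 4.02, 2.8 and 4.5 to 0.755, 1.2 and 0.973 CPM in DAXX_KO and was 5.1, 4.04 and 4.99 CPM in ATRX_KO, a difference of -2.03 ± 0.41. HOXC6 fell by 0.45 in DAXX_KO and rose by 0.35 in ATRX_KO, and HOXB6 fell by 1.00 and rose by 0.57, both on the log2 scale. HOXD10 and HOXD11 were lower in DAXX_KO with differences of -1.41 ± 0.26 and -1.12 ± 0.16. The higher members included HOXB7 (2.99 ± 0.77), HOXA4 (1.26 ± 0.26) and the HOXA-associated RNA HOTAIRM1, which rose from 31.8, 29.5 and 32.5 to 175, 177 and 179 CPM in DAXX_KO and from 28.7, 34.6 and 32.2 to 83.2, 81.7 and 75.6 CPM in ATRX_KO. With the strand setting not given, reads of HOTAIR and HOTAIRM1 and of genes that overlap them cannot be told apart, so their values are uncertain. LINC02381, near HOXC on chromosome 12, fell in DAXX_KO like the HOXC genes but rose in ATRX_KO.

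Imprinted genes, expressed from the allele of a single parent, were higher for 7 and lower for 4 of 21 tested members, with a median of 0.20 (0.38 with 3 members set to the floor, and -0.10 with no filter on low counts). DIRAS3, a maternally imprinted RAS-like gene, was at 11.6, 12.4 and 14.5 CPM in DAXX-series WT, 21.5, 18 and 12.9 in DAXX_KO, 17.8, 21.6 and 19.4 in ATRX-series WT and 0.851, 0.660 and 0.546 in ATRX_KO. ATRX_KO held few DIRAS3 transcripts, and DAXX_KO rose by 0.45 with libraries that overlapped WT, a difference of 5.27 ± 0.30 (adjusted p = 1.43e-09). MEST, a paternally expressed hydrolase-like gene, fell in both, to 18, 17.1 and 17.6 CPM in DAXX_KO and 3.06, 1.57 and 2.73 CPM in ATRX_KO from WT means of 33.6 and 23.5 CPM. PEG10, a retrotransposon-derived gene, fell more in DAXX_KO (-2.46 against -0.47). TP73 was at 1.76, 1.87 and 1.95 CPM in DAXX_KO and at or under the floor in every other library, so that DAXX_KO was at least 7.57-fold above ATRX_KO (difference adjusted p = 0.0167). It is among the 7 higher members but passed the filter on low counts only through DAXX_KO, so its call is not read as support. Without ATRX_WT replicate 2 the adjusted p of TP73 was 0.928, and with the replicate block within series it was 0.0514.

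Genes of the stress responses of the endoplasmic reticulum and of amino acid supply that differed were mostly lower in DAXX_KO relative to ATRX_KO. Of 32 tested members of the unfolded protein and integrated stress response list, 15 were lower and 2 higher, with a median of -0.35, and 6 had opposite effects. XBP1, the transcription factor spliced on ER stress, was at 43.2, 43.5 and 42 CPM in DAXX-series WT, 22.4, 19.2 and 20.5 in DAXX_KO, 34.5, 37.3 and 31.9 in ATRX-series WT and 52.7, 49.4 and 55.8 in ATRX_KO. PHGDH, the first enzyme of serine synthesis, was at 92.5, 92.1 and 96.2 CPM in DAXX-series WT, 52.5, 49.3 and 39 in DAXX_KO, 94.4, 85 and 82.4 in ATRX-series WT and 126, 155 and 122 in ATRX_KO. SLC7A11, the cystine importer, was at 84.8, 92.2 and 92.7 CPM in DAXX-series WT, 26.3, 29.9 and 36.6 in DAXX_KO, 64.8, 60.4 and 65.4 in ATRX-series WT and 100.3, 62.2 and 64.5 in ATRX_KO. XBP1 and PHGDH had opposite effects without overlap, whereas SLC7A11 fell in DAXX_KO and its ATRX_KO libraries overlapped WT. The differences were -1.65 ± 0.12 (adjusted p = 3.56e-08), -1.62 ± 0.15 (adjusted p = 3.79e-07) and -1.79 ± 0.21 (adjusted p = 5.65e-06).

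The chaperone HSPA5 (BiP) fell by 0.41 in DAXX_KO and rose by 0.22 in ATRX_KO, and HERPUD1, of ER-associated degradation, fell by 0.49 and rose by 0.65. The last members with opposite effects were DNAJC3 (-0.62 ± 0.10) and SLC3A2 (-0.67 ± 0.09). ATF4, the master factor of the integrated stress response, fell in DAXX_KO, from 221, 236 and 242 to 107, 100.2 and 89.7 CPM, and had an effect of -0.05 ± 0.09 in ATRX_KO (adjusted p = 0.68). CEBPB, also an inflammatory factor, rose in both and more in ATRX_KO (2.19 against 0.73).

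Genes of homologous recombination and the Fanconi pathway, which repair DNA breaks and crosslinks, were lower in DAXX_KO relative to ATRX_KO for 16 of 30 tested members and higher for 1, with a median of -0.38. FANCL, the ubiquitin ligase of the Fanconi core complex, was at 31.2, 31.9 and 33.9 CPM in DAXX-series WT, 36.9, 31.7 and 28.1 in DAXX_KO, 31.3, 31.4 and 34.1 in ATRX-series WT and 57.7, 69.4 and 58.2 in ATRX_KO. It rose in ATRX_KO alone, a difference of -0.94 ± 0.15 (adjusted p = 8.31e-05). RAD51C, a recombination protein, fell in both and more in DAXX_KO (-1.42 against -0.59), and centred on neighbouring genes its difference had an adjusted p of 0.186. BRCA1 fell in DAXX_KO by 0.61 on the log2 scale, with an ATRX knockout effect of 0.10 that did not pass the test. RAD50 and RAD51AP1 had opposite effects, with differences of -0.70 ± 0.11 and -0.63 ± 0.12. EXO1, a nuclease of end resection, was the member with a higher value (0.76 ± 0.23, adjusted p = 0.0152, and 0.0605 when centred).

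Cell cycle genes fell more often than they rose in both knockouts. Of 40 tested genes of DNA replication and the G1/S transition, 28 fell in DAXX_KO, against 27% of all tested genes, and 25 in ATRX_KO, against 24.3%. Of the 40, 13 were lower and 2 higher in DAXX_KO relative to ATRX_KO, with a median difference of -0.15. The share called either way, 37.5%, was close to the 36.8% of all tested genes. The licensing factors CDC6 and ORC1 fell in both and more in DAXX_KO (-1.03 ± 0.10 and -0.96 ± 0.16), and GINS3, of the replicative helicase, had opposite effects (-1.14 ± 0.20). Of 42 genes of mitosis, 14 were lower and 6 higher, with a median of -0.03 that turned to 0.10 with library totals alone. HMMR, a spindle-associated protein, fell more in DAXX_KO (-0.74 ± 0.10), and MAD2L1, of the spindle checkpoint, fell in ATRX_KO alone (-0.87), with an adjusted p of 0.0517 for its difference when centred on neighbouring genes. MYBL2, a factor that switches on mitotic genes, was at 49.9, 59.2 and 52.2 CPM in DAXX-series WT, 111, 108 and 137 in DAXX_KO, 98, 109.6 and 129.9 in ATRX-series WT and 97.3, 86.3 and 87.6 in ATRX_KO, where DAXX_KO and the ATRX-series WT libraries were alike and the WT libraries of the DAXX series were at -1.07 (log2) relative to those of the ATRX series. Its difference was 1.46 ± 0.15 (adjusted p = 1.68e-06).

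Cytosolic ribosomal protein genes were lower in DAXX_KO relative to ATRX_KO for 28 of 57 and higher for 1, with a median of -0.31. In DAXX_KO 36 of the 57 fell and 0 rose, where 27% of all tested genes fell and 25.7% rose. In ATRX_KO 14 fell and 5 rose, where 24.3% of all tested genes fell and 22% rose, so the share that fell was near that of all genes. RPS23 fell by 0.60 on the log2 scale in DAXX_KO and rose by 0.44 in ATRX_KO, and RPL22 and RPL19 fell in DAXX_KO alone, to 40.4, 43.9 and 35.7 from 75, 72.9 and 80.8 CPM and to 183, 188 and 168 from 353, 296 and 375 CPM. The WT libraries of RPS23 differed by 0.61 on the log2 scale between the series (adjusted p = 0.00696), and each knockout overlapped the WT libraries of the other series. Many ribosomal protein genes have processed copies, so their counts carry that uncertainty. Nuclear genes of oxidative phosphorylation split, 9 higher and 13 lower of 48, with a median of -0.01 (0.12 with library totals alone), and 14 in place of 22 differed when centred on neighbouring genes. NDUFA6, of complex I, had opposite effects, from 220.2, 219.5 and 274 to 117, 112 and 101 CPM and from 166, 192 and 189 to 283, 348 and 236 CPM, a difference of -1.77 ± 0.17 (adjusted p = 5.65e-07). Subunits of the ATP synthase moved apart, with ATP5F1C at 1.07 ± 0.12 and ATP5PD at -0.69 ± 0.09.

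The proteins that work with DAXX and ATRX were themselves measured. Of 26 genes of H3.3 deposition and its heterochromatin partners, 8 were higher and 7 lower, with a median of 0.12 (-0.01 when centred on neighbouring genes, which left 9 with a different effect in place of 15). H3-3B and H3-3A, the genes for H3.3 itself, fell in both knockouts: by 1.38 and 0.68 on the log2 scale for H3-3B, more in DAXX_KO, and by 0.60 and 1.00 for H3-3A, more in ATRX_KO. DEK, a histone chaperone, fell from 374, 352 and 422 to 292, 265 and 244 CPM in DAXX_KO and rose from 280.3, 285 and 306 to 352, 385 and 321 CPM in ATRX_KO (-0.80 ± 0.12, adjusted p = 6.46e-05). The WT libraries of the 2 series differed by 0.40 on the log2 scale for DEK (adjusted p = 0.00554), and each knockout overlapped the WT libraries of the other series. TRIM28, the corepressor of retroelements, fell in both and more in ATRX_KO (-1.25 against -0.70).

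Components of PML bodies and of SUMO conjugation, a setting in which DAXX works outside heterochromatin, were lower for 13 and higher for 5 of 26, with a median of -0.32. PML itself fell in ATRX_KO alone (-0.56), a difference of 0.43 ± 0.12, whereas the body components SP100 and SP140L fell in DAXX_KO and rose in ATRX_KO (-0.58 ± 0.10 and -0.90 ± 0.13). For SP140L the DAXX_KO and WT libraries overlapped, and the WT libraries differed by 0.37 on the log2 scale between the series (adjusted p = 0.0139). BLM, the helicase, fell in DAXX_KO from 25.6, 27.1 and 27.4 to 17, 13.7 and 12.2 CPM and had an effect of -0.22 ± 0.10 in ATRX_KO, which did not pass the test. SUMO3 rose in DAXX_KO and fell in ATRX_KO (0.61 ± 0.09), a difference that was 0.05 (adjusted p = 0.691) when centred on neighbouring genes.

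Telomere and shelterin genes differed for 6 of 23 (26.1%, against 36.8% of all tested genes), 2 higher and 4 lower. The list's median was 0.04 (-0.06 when centred on neighbouring genes). TERT, for which transcripts of the transgene and of the native gene cannot be told apart here, was at 23, 39.3 and 22.5 CPM in DAXX-series WT, 8.43, 10.9 and 10.9 in DAXX_KO, 21.3, 45.3 and 23.5 in ATRX-series WT and 35.2, 22 and 19.4 in ATRX_KO. Its spread between libraries was wide, and the difference of -1.25 ± 0.42 (adjusted p = 0.0272) did not pass without ATRX_KO replicate 1 (adjusted p = 0.0808), nor without ATRX_WT replicate 1 or 3, DAXX_KO replicate 1 or DAXX_WT replicate 2 (0.0600 to 0.0913), nor in DESeq2 (0.0567). ZNF827, which recruits chromatin remodelling to telomeres kept without telomerase, had opposite effects, from 21, 18.8 and 20.7 to 33.5, 34.3 and 31.7 CPM and from 22.8, 18.7 and 23.2 to 14.6, 17.4 and 16.6 CPM (1.13 ± 0.15, adjusted p = 2.22e-05). PINX1, a telomerase inhibitor, fell in ATRX_KO alone, to 15.9, 16.7 and 17.2 CPM from 36.3, 41.7 and 38.6 CPM (1.10 ± 0.12, adjusted p = 2.59e-06).

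Targets of the tumour suppressor p53 differed for 12 of 33, 2 higher and 10 lower, with a median of -0.02 (0.10 with library totals alone). The share of 36.4% was close to the 36.8% of all tested genes. GADD45A, a stress and growth arrest protein, was at 80.7, 71.3 and 81.3 CPM in DAXX-series WT, 32.7, 30.7 and 25.3 in DAXX_KO, 60.7, 52.1 and 57.3 in ATRX-series WT and 76.2, 76 and 90.6 in ATRX_KO, with opposite effects, no overlap and a difference of -1.91 ± 0.14 (adjusted p = 3.72e-08). EDA2R, a death receptor of the TNF family, and the exonuclease AEN had differences of -1.10 ± 0.16 and -1.04 ± 0.12, and only EDA2R of these moved in opposite directions. The WT libraries of the 2 series differed by 0.46 for GADD45A and 0.52 for EDA2R on the log2 scale (adjusted p = 0.0057 and 0.00664). The ATRX_KO libraries of GADD45A overlapped DAXX-series WT, and the DAXX_KO libraries of EDA2R overlapped ATRX-series WT. MDM2, the ubiquitin ligase for p53, rose by 0.34 in ATRX_KO, with a DAXX knockout effect of -0.03 that did not pass. The stress cytokine GDF15 rose in both, by 2.02 and 2.71.

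Genes of MHC class I antigen presentation that differed were higher in DAXX_KO relative to ATRX_KO more often than lower. Of 22 tested genes of MHC class I presentation, 8 were higher and 5 lower, with a median of 0.31. The class I heavy chain gene HLA-B rose in DAXX_KO by 0.79, with a difference of 0.55 ± 0.11, while 3 of the 5 lower members, CANX, CALR and PDIA3, are chaperones of the endoplasmic reticulum. TAP1, the peptide transporter, and TAPBP, its tapasin bridge, had differences of 0.73 ± 0.16 and 0.66 ± 0.21, although DAXX_KO and ATRX_KO did not pass the test for either gene when compared directly (adjusted p = 0.272 and 0.117). The difference of TAPBP did not pass without ATRX_WT replicate 3 (adjusted p = 0.0543) or without DAXX_KO replicate 3 (0.0605), nor either gene when centred on neighbouring genes (0.132 for TAP1 and 0.343 for TAPBP). HLA genes resemble each other, so their counts are uncertain.

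Interferon-stimulated genes differed for 11 of 41 (26.8%, against 36.8% of all tested genes), 7 higher and 4 lower, with a median of 0.10 that was -0.03 without ATRX_WT replicate 3. USP18, the protease that removes the ubiquitin-like ISG15, was at 13.2, 13.1 and 12.4 CPM in DAXX-series WT, 19.9, 18.4 and 15.3 in DAXX_KO, 12.5, 12 and 10.04 in ATRX-series WT and 2.3, 2.31 and 2.65 in ATRX_KO. IFITM2, a membrane protein that blocks virus entry, was at 74.1, 78.3 and 69.1 CPM in DAXX-series WT, 91.8, 84.7 and 88.6 in DAXX_KO, 79.6, 89.9 and 88 in ATRX-series WT and 26.2, 24.6 and 21.7 in ATRX_KO. In both genes ATRX_KO was far below every other library, and DAXX_KO stood slightly above its WT libraries. The differences were 2.72 ± 0.21 (adjusted p = 5.47e-08) and 2.09 ± 0.12 (adjusted p = 1.17e-09). CMPK2 had opposite effects at a low level, 1.01, 2.0 and 1.58 CPM in DAXX_KO against 0.255, 0 and 0.156 in ATRX_KO, which was at or under the floor, so that DAXX_KO was at least 6.23-fold higher (difference adjusted p = 0.00208). CMPK2 passed the filter on low counts only through DAXX_KO, so its call is not read as support. Conversely IFI44L and PARP14 rose in both and more in ATRX_KO, with differences of -1.79 ± 0.18 and -0.70 ± 0.13.

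Receptor tyrosine kinases and growth factors differed for 19 of 36, 12 higher and 7 lower, with a median of 0.01 (-0.04 without ATRX_WT replicate 2). IGF-binding proteins, which hold insulin-like growth factors outside the cell, made up the top of the list. IGFBP4 was at 2.82, 5.13 and 4.26 CPM in DAXX-series WT, 37.9, 38.5 and 34.9 in DAXX_KO, 3.21, 4.84 and 5.23 in ATRX-series WT and 7.31, 5.77 and 4.37 in ATRX_KO. IGFBP7 was at 61.5, 54.3 and 61.4 CPM in DAXX-series WT, 110.1, 118 and 103 in DAXX_KO, 51.8, 50.3 and 45.9 in ATRX-series WT and 15.1, 15.3 and 18 in ATRX_KO. IGFBP4 rose in DAXX_KO alone, and IGFBP7 had opposite effects with no overlap. The differences were 2.80 ± 0.31 (adjusted p = 2.95e-06) and 2.51 ± 0.13 (adjusted p = 4.39e-10). IGFBP5, at 3.52, 2.8 and 4.01 CPM in DAXX_KO and under the floor in ATRX_KO, was at least 14-fold higher in DAXX_KO (difference adjusted p = 1.2e-05). IGFBP5 passed the filter on low counts only through DAXX_KO, so its call is not read as support. IGFBP2 and IGFBP3 fell in both knockouts and more in ATRX_KO. PDGFRB, a platelet-derived growth factor receptor, had opposite effects (2.13 ± 0.21), and EGFR fell in DAXX_KO alone (-0.87). Ligands of EGFR leaned the other way, with HBEGF at -1.40 ± 0.14 and EREG at -1.35 ± 0.11.

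Glioma lineage and stem-cell genes were higher for 7 and lower for 2 of 22 (40.9% called, against 36.8% of all tested genes). The list's median was -0.01 (0.07 with 2 members set to the floor, and 0.12 with library totals alone). HES1, a Notch target, rose to 10.6, 10.9 and 5.84 CPM in DAXX_KO from 3.72, 6.07 and 4.99 and fell to 2.47, 2.39 and 3.04 CPM in ATRX_KO from 6.34, 7.92 and 6.41, with overlap in the DAXX series (2.27 ± 0.35, adjusted p = 7.79e-05). TWIST1, a mesenchymal factor, was at 34.4, 30.5 and 29.7 CPM in DAXX-series WT, 67.3, 79.8 and 85.1 in DAXX_KO, 36.9, 41.1 and 38.7 in ATRX-series WT and 24.1, 23.3 and 29.4 in ATRX_KO, with opposite effects and no overlap (1.90 ± 0.15, adjusted p = 7.42e-08). SOX2, a stem-cell factor, fell in both knockouts, to 0.629, 0.267 and 0.122 CPM in DAXX_KO and 0.170, 0.0825 and 0.0780 CPM in ATRX_KO from 1.41, 1.05 and 2.43 and 4.51, 4.0 and 4.13 CPM. Its difference passed the test (adjusted p = 0.0144), but not without DAXX_KO replicate 1 (adjusted p = 0.151) or when the knockouts were compared directly (0.117).

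Guidance molecules of axons and synapses differed for 11 of 27 (40.7%, against 36.8% of all tested genes), 6 higher and 5 lower. The list's median was 0.26 (0.34 with 4 members set to the floor, and -0.02 with no filter on low counts). SEMA6D, a transmembrane semaphorin, was at 8.05, 5.95 and 6.2 CPM in DAXX-series WT, 0, 0.133 and 0 in DAXX_KO, 10.3, 9.34 and 14 in ATRX-series WT and 9.19, 8.08 and 6.56 in ATRX_KO. With DAXX_KO at or under the floor, ATRX_KO was at least 20.9-fold higher (difference adjusted p = 7.91e-07). NTN4, a netrin of basement membranes, was at 3.62, 2.45 and 3.28 CPM in DAXX-series WT, 4.91, 5.87 and 7.78 in DAXX_KO, 2.9, 4.0 and 1.77 in ATRX-series WT and 0.255, 0.165 and 0 in ATRX_KO. The ATRX_KO libraries of NTN4 were at or under the floor, and DAXX_KO was at least 25.2-fold higher (difference adjusted p = 7.43e-06). EPHB3, an ephrin receptor, fell in ATRX_KO alone (2.23 ± 0.65, adjusted p = 0.0129).

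Sterol synthesis and lysosomal genes diverged as well. Of 24 genes of cholesterol synthesis, 9 were lower and 4 higher in DAXX_KO relative to ATRX_KO, with a median of -0.27. SREBF2, the factor that controls the pathway, was at 13.2, 11.4 and 12.2 CPM in DAXX-series WT, 16.1, 16.4 and 14.8 in DAXX_KO, 9.86, 10.01 and 8.52 in ATRX-series WT and 39, 60.4 and 47.5 in ATRX_KO. It rose in ATRX_KO, as did DHCR7 and HMGCS1, enzymes of the last and the first steps. The differences were -2.01 ± 0.21, -1.55 ± 0.29 and -1.53 ± 0.19, with adjusted p values of 1.64e-06, 0.00047 and 1.08e-05. In DAXX_KO the effects of SREBF2 and DHCR7, 0.36 and 0.50, did not pass (adjusted p = 0.0653 and 0.0615), although the DAXX_KO and WT libraries of SREBF2 did not overlap. That of HMGCS1 was -0.003 (adjusted p = 0.989). Of 30 genes of lysosomes and autophagy, 12 were higher and 6 lower, with a median of 0.25, and 20 rose in DAXX_KO, against 25.7% of all tested genes, and 18 in ATRX_KO, against 22%. SQSTM1, the autophagy receptor p62, was at 633, 657 and 623 CPM in DAXX-series WT, 695, 683 and 728 in DAXX_KO, 515, 513 and 486 in ATRX-series WT and 1931, 2389.8 and 2350.2 in ATRX_KO. The rise was by far larger in ATRX_KO, with a difference of -2.0 ± 0.10 (adjusted p = 4.97e-10). NPC1, a cholesterol exporter of lysosomes, fell by 0.39 in DAXX_KO and rose by 1.04 in ATRX_KO, while the lysosomal membrane protein LAMP2 rose in DAXX_KO alone and the proteases CTSD and TPP1 rose in both and more in DAXX_KO, with differences of 1.01 ± 0.10, 0.75 ± 0.20 and 0.65 ± 0.12.

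Glycolysis and hypoxia genes were lower for 8 and higher for 4 of 33, with a median of -0.17. The share called, 36.4%, was close to the 36.8% of all tested genes. NDRG1, a hypoxia-induced protein, fell from 80.8, 95 and 89.2 to 38.9, 37.2 and 38.2 CPM in DAXX_KO and was 69.4, 114 and 98.1 CPM in ATRX_KO against 75.9, 68.3 and 70.04 in WT, with overlap in the ATRX series (-1.60 ± 0.18, adjusted p = 4.19e-06). HK2, a hexokinase, had opposite effects (-1.11 ± 0.18), but its WT libraries differed by 0.58 on the log2 scale between the series (adjusted p = 0.00682). The ATRX_KO libraries of HK2 overlapped DAXX-series WT. ANGPTL4, an inhibitor of lipoprotein lipase, passed narrowly (-1.41 ± 0.52, adjusted p = 0.0439), with adjusted p values of 0.0581 to 0.116 in the 8 fits that left out ATRX_KO replicate 1, 2 or 3, ATRX_WT replicate 2, DAXX_KO replicate 1 or 2, or DAXX_WT replicate 2 or 3. ANGPTL4 did not pass either with DESeq2 (adjusted p = 0.0687), centred on neighbouring genes (0.0937), with library totals alone (0.0647), with no filter on low counts (0.0583) or with the replicate block within series (0.0551).

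Genes that moved in a single knockout, with the other effect under 0.25 on the log2 scale, included strong switches. MAP2, a microtubule-associated protein of neurons, was at 6.04, 5.37 and 6.33 CPM in DAXX-series WT, 58.8, 58.4 and 59.2 in DAXX_KO, 5.65, 3.92 and 5.99 in ATRX-series WT and 6.29, 3.88 and 5.15 in ATRX_KO, and its difference was 3.34 ± 0.24 (adjusted p = 2.23e-08). The sum of neuronal markers given above was also higher in DAXX_KO than in its WT libraries, mostly through SNAP25, while GAD1 and RBFOX3 overlapped WT. The part of this sum in the MAP2 difference was not tested. The noncoding genes MIR1915HG and LINC00926 likewise rose in DAXX_KO alone, to means of 42.6 ± 2.75 and 12 ± 1.22 CPM (SD, n = 3) from 7.33 ± 1.08 and 1.69 ± 0.118. Falls in DAXX_KO alone that the rule named were those of KIF7, a regulator of Hedgehog signalling, at 4.15, 2.93 and 2.8 against 17.1, 17.5 and 15.8 CPM (-2.46 ± 0.21, adjusted p = 1.36e-07), of ITGA2 described above, and of NCKAP1L, an actin regulator of blood cells (-2.05 ± 0.57).

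In ATRX_KO alone the zinc finger genes ZNF573 and ZNF91, both on chromosome 19, rose. ZNF573 was at 1.11, 1.52 and 0.973 CPM in DAXX-series WT, 1.26, 1.07 and 1.58 in DAXX_KO, 1.6, 1.25 and 0.422 in ATRX-series WT and 9.19, 13 and 8.51 in ATRX_KO. ZNF91, which represses retroelements, was at 1.41, 1.98 and 2.19 CPM in DAXX-series WT, 1.38, 2.4 and 2.43 in DAXX_KO, 2.22, 1.42 and 3.21 in ATRX-series WT and 17.9, 14 and 8.9 in ATRX_KO. ZC3H12A, the RNase that degrades cytokine transcripts, rose to 22.4, 71.2 and 53.2 CPM from 11.8, 8.26 and 9.7 CPM. Their differences were -3.07 ± 0.55, -2.40 ± 0.50 and -2.36 ± 0.49, with adjusted p values of 0.000319, 0.00122 and 0.00109, and ATRX_KO replicate 1 was the lowest for ZC3H12A as it was for IL1B. Falls in ATRX_KO alone were led by TMEM100, a membrane protein downstream of BMP signalling, at 14, 13.9 and 11.4 CPM in DAXX-series WT, 11, 13.6 and 13.6 in DAXX_KO, 22.6, 24.4 and 25.1 in ATRX-series WT and 1.62, 1.48 and 1.56 in ATRX_KO. Besides HLA-DPB1, ALPK2, an alpha-kinase, fell from 35.4, 34.4 and 34.9 to 6.55, 6.1 and 5.15 CPM. The differences were 3.90 ± 0.21 (adjusted p = 7.35e-10) and 2.70 ± 0.13 (adjusted p = 1.97e-10).

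Some genes were detected in a single group, with no more than 3 counts in any library elsewhere. Of 418 genes at or under the floor in the groups other than DAXX_KO, 24 passed the filter on low counts, as did 24 of 691 for ATRX_KO. They passed only through the group in which they were high, so their calls are not read as support. Those called, 9 for DAXX_KO and 11 for ATRX_KO, remain among the 5625 genes. PCBP3, an RNA-binding protein, was at 5.29, 5.6 and 6.44 CPM in DAXX_KO, at least 23.5-fold above ATRX_KO. EVC2, of the ciliary Hedgehog pathway, was at 1.76, 2.53 and 4.86 CPM, at least 12.4-fold above. RAB26, of vesicle transport, was at 2.27, 2.67 and 2.92 CPM, at least 10.7-fold above. ZNF260, a zinc finger gene on chromosome 19, was at 9.61, 9.9 and 9.44 CPM in ATRX_KO, at least 25.3-fold above DAXX_KO. BCL2A1, an NF-kB-induced survival protein, was at 2.72, 8.41 and 6.63 CPM, at least 15.6-fold higher. A processed pseudogene with no symbol, ENSG00000237846, was at 4.59, 4.87 and 4.37 CPM, and its reads may belong to its parent gene. These calls depended on WT libraries with few counts: without ATRX_WT replicate 3 the adjusted p was 0.138 for PCBP3 and 0.0745 for EVC2, and without ATRX_WT replicate 2 it was 0.177 for RAB26 and 0.0743 for EVC2. Without DAXX_WT replicate 1 it was 0.0525 for ZNF260 and 1.00 for the pseudogene, and without DAXX_WT replicate 3 it was 0.0582 for ZNF260.

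The etoposide libraries were separate samples of the same clones and allowed the difference to be measured again. Of 2736 genes called higher in control and tested there, 2550 kept the sign and 1700 (62.1%) passed FDR 0.05 with it, against 18.9% of genes tested in both that were called higher under etoposide. Of 2829 called lower, 2577 kept the sign and 1637 (57.9%) passed, against 16.9%. Among the genes with opposite effects, 408 of 506 genes (80.6%) higher in DAXX_KO and 356 of 452 (78.8%) lower in DAXX_KO had a called difference of the same sign. Both knockout effects passed with their control signs for 196 of the 506 and for 131 of the 452. A call in the other direction was seen for 10 and 25 genes of the whole sets and for 0 and 2 of the opposite ones. The same clones were used, so these libraries do not separate a knockout from its clone.

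Among the lists, all 15 different cytokine and NF-kB members kept their sign under etoposide and 12 passed, with a median of -1.18 over the 23. IL1B had a difference of -6.12 (adjusted p = 2.52e-10) and CSF3 of -5.98 (adjusted p = 4.37e-11). All 12 different collagen chains kept their sign and 10 passed, and 11 of 12 HOX members kept it and passed, HOXC10 at -6.46 (adjusted p = 3.64e-13). Of 12 p53 targets 8 kept the sign, and of 17 recombination genes 13 kept it, with 5 and 8 passing. The MHC class II genes HLA-DRA and HLA-DPA1 were at 3.80 and 3.82 under etoposide.

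The difference also varied by position in the genome. Chromosome medians of the difference ran from 0.50 for chromosome 21, 0.39 for X and 0.36 for 4 to -0.26 for 5 and -0.21 for 15. On chromosome 21 the median ATRX knockout effect was -0.76 and the DAXX knockout effect -0.16. On chromosome 4 the median ATRX knockout effect was 0.09 and the DAXX knockout effect 0.45. In 247 blocks of neighbouring genes (median of 60 genes), 36 had a median difference of at least 0.3 and held 909 called-higher against 102 called-lower genes of 2146 tested. In 19 blocks at -0.3 or below, 432 of 1138 were called lower and 78 higher. These blocks held 1521 of the 5497 called genes that could be placed and 282 of 945 with opposite effects. The cause of these regional shifts was not tested.

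Genes named above lie in shifted regions: COL6A1, COL6A2, SUMO3 and PCBP3 lie on chromosome 21, and KLHL4, LAMP2 and EDA2R on X. The difference of EDA2R, -1.10, ran against the median difference of X, 0.39. DUSP4 lies in a chromosome 8 block with a median difference of 0.57. COL5A1 lies in a chromosome 9 block with a median difference of 0.96, and PINX1 in a block at 0.46. LINC00665 and ZNF573 lie in a chromosome 19 block at -0.57, and ZNF91 in another at -0.43. Centred on the 30 neighbours on each side, 5049 genes differed, of which 4071 were among the 5625, and 837 had opposite effects, of which 563 were among the 963. None of the 111 genes named by the rule changed the sign of its difference when so centred.

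**Figure D5:**
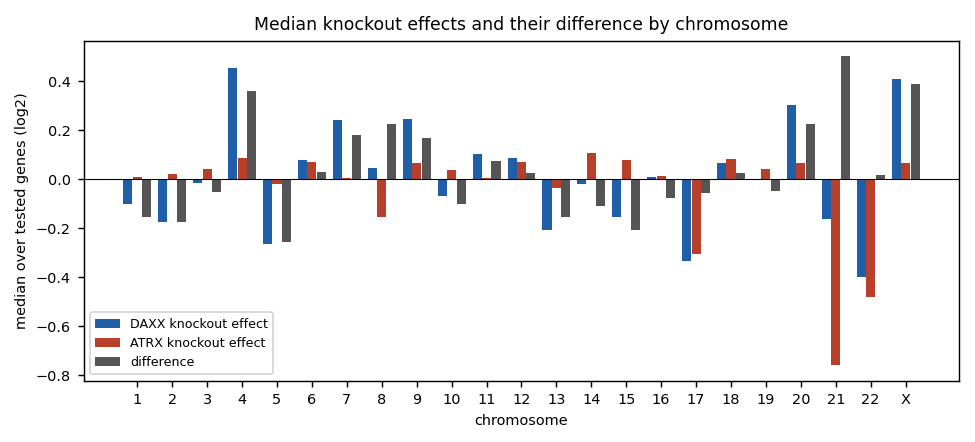
Bars are medians over the tested genes of each chromosome (log2) of the DAXX knockout effect, the ATRX knockout effect and their difference. Chromosome 21 has the lowest ATRX knockout effect, -0.76, and the highest difference, 0.50, and chromosomes 4 and X have raised DAXX knockout effects of 0.45 and 0.41.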

How the data were processed

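RNA of the 24 libraries was prepared with a QuantSeq 3′ kit and sequenced as 75-base single-end reads. The authors aligned reads with STAR to hg19 and deposited estimated counts per Ensembl GRCh37 gene from RSEM (1.2.3 in the submitters' processing notes). The strand setting of the counting is not given in the sources used here, 3′ libraries count transcripts near their ends, and reads of near-identical genes are shared out by estimate. Of 57736 gene IDs, 55501 matched a symbol and hold 98.8% of the counts.

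The counts were rounded and fitted in edgeR 4.0.16 (R 4.3.3) with TMM scaling. Genes were kept by filterByExpr (minimum count 10, minimum total 15), and the quasi-likelihood test with Benjamini-Hochberg adjustment was applied at FDR 0.05 over 15306 genes. The 12 control libraries were fitted as 4 group means, and the contrast was the DAXX knockout effect minus the ATRX knockout effect. Library totals of 6928950 to 13298557 set the precision of low values, and the floor was 3 counts per library. CPM are counts scaled to 1000000 per library after TMM. The common biological coefficient of variation was 0.0924. Libraries of a group differed beyond sampling noise (chi-square per degree of freedom 2.32 to 13.7), so none was counted as a duplicate. The 12 etoposide libraries were fitted apart.

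Named genes were the 8 in each direction with the largest smaller-of-both opposite effects (mean of at least 1 CPM in each group and no overlap of KO and WT in either series), the 3 with the largest difference in each class that moved by at least 1 (log2) in 1 knockout and under 0.25 in the other, up to 3 per gene list, up to 3 each way at or under the floor in all other groups, and DAXX and ATRX, 111 in all. Other list members named for illustration were chosen after their values were seen. A few list members are not reported here by name. The members and the gene lists were chosen with earlier results of these data known. Promoter sequences are from RefSeq on GRCh38.p14, matched by symbol.

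Alternatives were other scalings, filters, DESeq2 1.42.0, a model of all 24 libraries, replicate blocks, each library left out, a fold minimum, a direct comparison of the knockouts, and centring on the 30 tested genes on each side. The scripts were tested on simulated data.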

Additional observations from a re-analysis of the deposited data

Results flagged for a closer look

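The difference of the knockout effects was itself tested, and 5625 genes passed, of which 509 rose in DAXX_KO and fell in ATRX_KO and 454 did the reverse. The same difference was then tested between control and etoposide libraries in a model of all 24 (edgeR's quasi-likelihood test with Benjamini-Hochberg adjustment). It passed for 500 of 16674 genes (3.00%), with 2803 at an unadjusted p under 0.05. Of 5624 genes called in control, 326 passed, and for 269 of these the difference was smaller in size under etoposide. The 5624 were picked by their control differences, which by itself favours a smaller size under etoposide.

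Of the 111 genes named by the rule, 12 were among them. Control minus etoposide, the difference changed by 2.60 on the log2 scale for NFATC2 (adjusted p = 0.000196), by 1.26 for KLHL4 (adjusted p = 0.0415), by 1.79 for SMAD6 (adjusted p = 0.0285) and by 2.01 for MIR1915HG (adjusted p = 0.000627), all higher in DAXX_KO in control. For BAMBI the fitted change was 6.34 (adjusted p = 0.0371), a value that depends on groups without counts. It was -3.22 for VGF (adjusted p = 1.15e-11), -2.23 for GALNT6 (adjusted p = 0.00445), -1.57 for H2BC12 (adjusted p = 6.75e-05), -1.07 for NDRG1 (adjusted p = 0.00481), -0.77 for AEN (adjusted p = 0.00744) and -0.55 for SQSTM1 (adjusted p = 0.0292), all lower in DAXX_KO in control. These differences were thus larger in size in control. The genes were named by the rule from their control values, so a smaller size under etoposide can follow from that choice, and this was not tested. For MYBL2 the change was -1.01 (adjusted p = 0.0108), and its difference, higher in DAXX_KO, was larger under etoposide.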

How the results depend on the processing

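Of the alternatives, a minimum absolute difference of 1 on the log2 scale left 2018 genes, 1172 higher and 846 lower, and 570 with opposite effects. Leaving out each control library in turn gave 5004 to 5829 genes with a different effect, 2472 to 2915 higher and 2532 to 2914 lower, and 818 to 1070 with opposite effects, 426 to 543 and 368 to 527 by direction. The DAXX knockout effect passed for 7371 to 8353 genes and the ATRX knockout effect for 6185 to 7212. The etoposide difference, left out by library as a choice made after seeing the data, passed for 4763 to 5771. Of the 5625 genes, 5237 were called with the same sign by DESeq2 (5319 called) and 4874 with library totals alone (5647 called). The replicate numbers did not pair the libraries, with correlations of deviations from -0.29 to 0.20 over 18 pairs; with the replicate block 5395 genes differed and 897 had opposite effects, and with the replicate block within series 4914 and 773. No difference of a named gene reversed in an alternative that tested it. With 10 counts or more in every control library, only 79 of the 111 named genes were tested. The larger direction of the main fit, lower (2850 against 2775), turned to higher with library totals alone (3548 against 2099), RLE size factors (2819 against 2794) and DESeq2 (2675 against 2644). List medians changed sign under at least 1 alternative for H3.3 deposition, HOX, axon guidance, glioma lineage, imprinted, interferon-stimulated, mitosis, oxidative phosphorylation, p53 target, receptor tyrosine kinase and telomere genes. For the named genes, 42 results under single alternatives kept their direction but did not pass, the cause was not tested, and 16 genes were touched: TERT, ANGPTL4, TAPBP, TAP1, SUMO3, MAD2L1, RAD51C, EXO1, CIITA, SOX2, TP73, PCBP3, EVC2, RAB26, ZNF260 and ENSG00000237846. Depth limits genes near the floor of 3 counts, 0.229 to 0.400 CPM, and 1 clone per knockout limits every result.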
